A study of Drosophila melanogaster with 10 samples.

Results

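The neprilysin and angiotensin-converting type peptidases of Drosophila melanogaster were followed in cells sorted from embryo cultures by fluorescent reporters. A gene was taken as a member when a probe set of the array carried its symbol alone and that symbol was Nep or Nepl with a number, Ance with or without a number, Acer, Mmp1 or Mmp2. This gave 33 of 11982 measured genes, with 36 of 18769 tested probe sets. They comprised 7 neprilysin genes (Nep1 to Nep7), 19 neprilysin-like genes (Nepl3 to Nepl21), 6 genes of the angiotensin-converting enzyme type (Ance, Ance-2 to Ance-5 and Acer) and the matrix metalloproteinase gene Mmp2. Mmp1 was not analysed here. Where a gene had several probe sets, the one with the highest mean over the 10 arrays was used, so the measured level chose among probe sets. The probe set of a gene was thus chosen by its mean level over both groups. The families themselves were proposed with earlier results of the same comparison known, so their counts below describe them and are no evidence that they stand apart from other genes.

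The comparison set 5 arrays against 5. Flies of the first strain, called Cha here (7.4 kb Cha-Gal:UAS-GFP), carried a 7.4 kb fragment from the gene for choline acetyltransferase that drove the activator Gal4, and Gal4 in turn drove green fluorescent protein. Flies of the second, called Gad here (2.1 kb Gad1(s)-RFP), carried a 2.1 kb fragment from the gene for glutamate decarboxylase in front of a red fluorescent protein. For both groups, early gastrula embryos from 2 week old adults were dissociated and grown at 25 C for 5 to 7 days (up to 8 in the growth protocol), and fluorescent cells were sorted. Each reporter shows only where its own DNA fragment was active, and the groups differ in strain and fluorophore as well as in the fragment. The 2 reporter systems also differ in that Gal4 amplifies one of them. Whether the arrays of a group came from separate cultures is not in the labels, so the p-values cover the spread between arrays, and that spread may be technical only.

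Neprilysins are zinc metallopeptidases, mostly anchored in the cell membrane with the active site outside, that cut short peptides and thereby end the signalling of many neuropeptides and hormones. Angiotensin-converting enzymes are also zinc peptidases and remove pairs of residues from the end of short peptides. In flies, both families have expanded into many copies, and several copies are predicted to have lost catalytic residues. Matrix metalloproteinases cut matrix proteins around cells and are held in check by Timp.

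The values are log2 expression levels, on which a difference of 1 is a doubling; each probe set is compared only with itself. Arrays of 1 group correlated at 0.971 to 0.99 in Cha and at 0.989 to 0.997 in Gad over all tested probe sets. Cha replicate 4 had the lowest mean correlation with its own group (0.977); many of the peptidase genes were lowest on it. Neuronal marker genes were measured in both groups but not at equal levels. Of 9 such markers, 5 passed toward Cha and 0 toward Gad (limma adjusted p under 0.05), with a median difference of 0.74. Over all genes, 8.21% passed toward Cha and 10.2% toward Gad. Among the markers that did not pass was elav, at a mean of 9.51 in Cha and 9.10 in Gad (adjusted p = 0.536, limma). Gad1, the gene behind the Gad reporter, stood at 12.49 in Cha and 12.37 in Gad (adjusted p = 0.626), and ChAT, the gene behind the Cha reporter, at 11.39 and 10.71 (adjusted p = 0.067). Without Cha replicate 4, ChAT passed toward Cha (0.81, adjusted p = 0.0306), as did VGAT, the vesicular GABA transporter gene (0.70, adjusted p = 0.0148), and Gad1 did not pass (0.24, adjusted p = 0.181). VAChT, the vesicular acetylcholine transporter gene, did not pass with all arrays (0.22, limma adjusted p = 0.43) or without Cha replicate 4 (0.27, adjusted p = 0.343). Directions refer to the labels of the arrays. The data came from bulk RNA, in which fewer cells of a type and less RNA per cell cannot be told apart.

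Most of the peptidase genes were higher in Gad. Of the 33, 23 passed the threshold (limma adjusted p under 0.05 over all genes) toward Gad, where 10.2% of all genes did. One (Nepl3) passed toward Cha, where 8.21% of all genes did, and 9 did not pass. The 33 differences of Cha minus Gad ran from -3.70 to 0.89 with a median of -1.84, against a median of 0.04 over all genes. By family, 15 of 19 neprilysin-like genes, 4 of 7 neprilysin genes and 4 of 6 angiotensin-converting type genes were higher in Gad, with median differences of -2.09, -0.61 and -1.40. Differences of at least 4-fold toward Gad were found in 15 of the 33, a size that 1.14% of all genes passed. The lowest Gad array lay above the highest Cha array in 22 of the 33, as it did in 7.6% of all genes. The reverse was found in 0 of the 33, beside 5.93% of all genes.

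**Figure D1:**
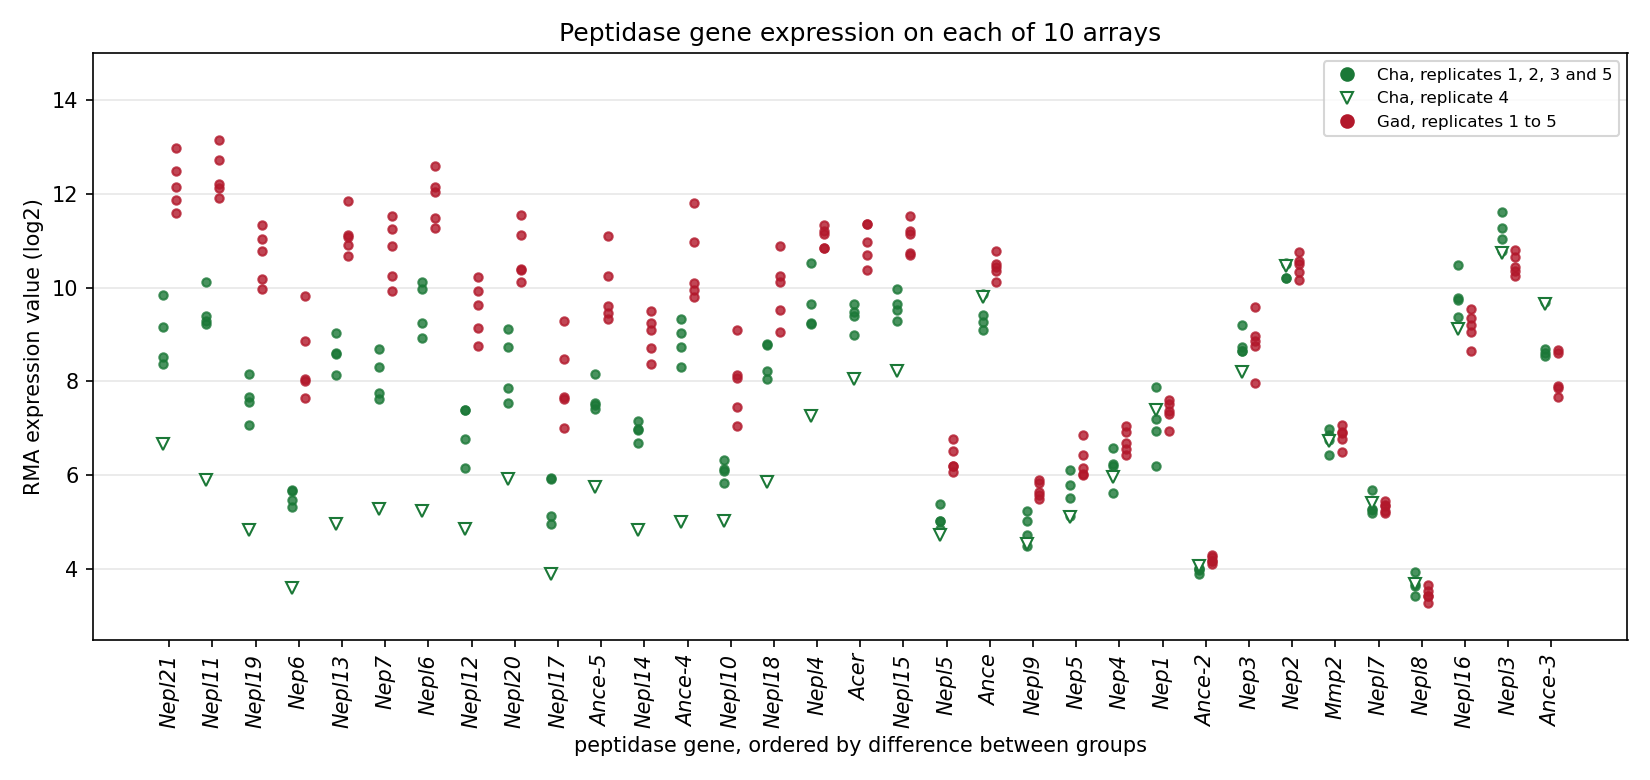
Expression values (log2) of the 33 peptidase genes on each array, ordered from the largest difference toward Gad (left) to the largest toward Cha (right). Each point is 1 array; green is Cha, red is Gad, and the open triangle is Cha replicate 4, which lies below the other Cha points in most genes of the left part.

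Of the 7 neprilysin genes, 2 were much higher in Gad, 2 were higher by less and 3 did not pass. Nep7 stood at 8.68, 7.63, 7.76, 5.29 and 8.30 on Cha replicates 1 to 5 and at 11.24, 10.89, 11.53, 9.92 and 10.24 on Gad replicates 1 to 5. Nep6 stood at 5.66, 5.33, 5.70, 3.59 and 5.47 in Cha and at 8.86, 8.06, 9.83, 7.65 and 8.01 in Gad. In both genes all Gad arrays exceeded all Cha arrays, and Cha replicate 4 was the lowest of the 10. The difference was -3.23 (SE 0.57, adjusted p = 0.00398) for Nep7 and -3.33 (SE 0.48, adjusted p = 0.00143) for Nep6, or 9.40-fold and 10.1-fold. Without Cha replicate 4 they were -2.67 and -2.94. On Cha replicate 4, Nep6 was dim, meaning at or below the 40th percentile of its array, so its fold is uncertain.

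Nep4, known in flies to act in muscle and the nervous system and to affect insulin-like peptide genes, was higher in Gad by 1.52-fold (6.12 ± 0.35 against 6.73 ± 0.25, SD, n = 5, limma adjusted p = 0.0381). Nep5 was higher by 1.70-fold (5.54 ± 0.43 against 6.30 ± 0.36, adjusted p = 0.0377). The groups overlapped in both. Neither passed without Cha replicate 4 (-0.57 and -0.66, adjusted p = 0.0598 and 0.0614). The call of Nep4 was also lost on leaving out Cha replicate 2, Cha replicate 3 or any Gad array but replicate 4 (adjusted p up to 0.0952). That of Nep5 was also lost on leaving out Cha replicate 2 or 3, or Gad replicate 2, 3 or 5 (up to 0.0902).

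Nep1, Nep2 and Nep3 did not pass. Nep2, whose product cleaves tachykinin peptides in flies, stood at 10.50, 10.20, 10.20, 10.46 and 10.52 in Cha and at 10.16, 10.34, 10.56, 10.51 and 10.75 in Gad. The spread between its 10 values was small and the groups interleaved, with a difference of -0.09 (95% interval -0.36 to 0.19, adjusted p = 0.675). Nep3 stood at 8.65, 9.21, 8.73, 8.21 and 8.65 in Cha and at 9.59, 7.97, 8.75, 8.97 and 8.86 in Gad, and the 95% interval of its difference of -0.14 was -0.73 to 0.45. Nep1 stood at 7.21, 7.88, 6.95, 7.39 and 6.20 in Cha and at 7.52, 6.94, 7.31, 7.60 and 7.37 in Gad, and its difference of -0.22 had an interval of -0.81 to 0.36. The groups of Nep1 and Nep3 interleaved as well, and their intervals were wider than that of Nep2.

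The neprilysin-like genes held the largest differences of all families. Nepl21 stood at 9.83, 8.36, 8.52, 6.67 and 9.17 in Cha and at 12.13, 12.48, 12.98, 11.59 and 11.86 in Gad. Nepl11 stood at 10.12, 9.22, 9.28, 5.91 and 9.40 in Cha and at 12.71, 12.12, 13.14, 11.92 and 12.20 in Gad. Nepl19 stood at 8.16, 7.07, 7.56, 4.83 and 7.67 in Cha and at 11.03, 10.78, 11.32, 9.98 and 10.19 in Gad. In these 3 genes every Gad array exceeded every Cha array by a wide gap, Gad replicate 3 was the highest of the 10 and Cha replicate 4 the lowest. The differences were -3.70 (SE 0.50, adjusted p = 0.000983), -3.63 (SE 0.66, adjusted p = 0.00452) and -3.60 (SE 0.55, adjusted p = 0.00188), which correspond to 13.0-fold, 12.4-fold and 12.2-fold. Without Cha replicate 4 the differences were smaller, at -3.24 for Nepl21, -2.91 for Nepl11 and -3.05 for Nepl19, with adjusted p = 0.000257, 0.000119 and 0.000162. Ordered over all 11982 genes by the difference toward Gad, they held ranks 8, 11 and 12. A second probe set of Nepl11 gave a difference of -3.56.

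Nepl13, Nepl6 and Nepl12 followed with 9.56-fold, 9.22-fold and 8.12-fold higher levels in Gad. Nepl13 stood at 9.04, 8.15, 8.60, 4.97 and 8.60 in Cha and at 11.12, 11.08, 11.85, 10.67 and 10.92 in Gad. Nepl6 stood at 9.98, 8.93, 9.24, 5.23 and 10.13 in Cha and at 12.04, 12.13, 12.60, 11.28 and 11.48 in Gad. In Nepl6, Cha replicate 4 lay 3.70 below the next lowest Cha array, farther than in any other peptidase gene. Nepl12 stood at 7.40, 6.15, 6.78, 4.85 and 7.39 in Cha and at 9.63, 9.94, 10.22, 8.75 and 9.14 in Gad. The groups of all 3 were separate, with adjusted p = 0.00725, 0.0185 and 0.00208. Without Cha replicate 4 the differences of Nepl13, Nepl6 and Nepl12 were -2.53, -2.34 and -2.61, down from -3.26, -3.21 and -3.02, with smaller adjusted p (0.000135, 0.000893 and 0.000766). Without Gad replicate 3, Nepl6 missed the threshold (-3.03, adjusted p = 0.0507).

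Nepl20, Nepl17 and Nepl14 were 7.34-fold, 7.17-fold and 5.51-fold higher in Gad. Nepl20 stood at 8.74, 7.55, 7.85, 5.92 and 9.12 in Cha and at 10.38, 11.13, 11.55, 10.12 and 10.40 in Gad. Nepl17 stood at 5.92, 5.12, 5.94, 3.90 and 4.97 in Cha and at 8.48, 7.63, 9.28, 7.01 and 7.66 in Gad. It was dim on Cha replicate 4, which makes its fold uncertain. Nepl14 stood at 7.15, 6.68, 6.98, 4.84 and 6.96 in Cha and at 9.10, 9.25, 9.49, 8.37 and 8.72 in Gad. None of the 3 had overlapping groups (adjusted p = 0.00489, 0.00289 and 0.00296), and without Cha replicate 4 they differed by -2.40, -2.53 and -2.04.

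The other neprilysin-like genes higher in Gad differed by less. Nepl10 (-2.09), Nepl18 (-2.02), Nepl4 (-1.89), Nepl15 (-1.73), Nepl5 (-1.34) and Nepl9 (-0.89) passed, all with separate groups. Nepl15, reported in flies to lack catalytic residues and to affect fat and glycogen stores, stood at 9.33 ± 0.67 in Cha and 11.06 ± 0.35 in Gad (SD, n = 5, limma adjusted p = 0.00344). Nepl5 had the smallest adjusted p of the 33 (0.000452) with a 2.54-fold difference and a small spread (SD 0.25 in Cha and 0.29 in Gad). It was dim on 1 Cha array and Nepl9 on 3. Nepl18 lost its call without Gad replicate 1, 2 or 3 (adjusted p = 0.0575, 0.0563 and 0.068).

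Of the remaining neprilysin-like genes, 1 was higher in Cha and 3 did not pass. Nepl3 stood at 11.05, 10.77, 11.27, 10.74 and 11.61 in Cha and at 10.35, 10.81, 10.65, 10.25 and 10.45 in Gad. Its groups overlapped through Gad replicate 2, and the difference was 0.58 (SE 0.18, adjusted p = 0.0418). The call of Nepl3 was lost on leaving out Cha replicate 1, 3 or 5, or Gad replicate 1, 3, 4 or 5 (adjusted p = 0.0625 to 0.0912), and with cyclic loess (0.0596). Nepl16 had its higher mean in Cha too (9.70 ± 0.51 against 9.16 ± 0.33, SD, n = 5) but did not pass (limma adjusted p = 0.153). Nepl7 differed by 0.04 (interval -0.20 to 0.28), and Nepl8 was dim on all 10 arrays.

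**Figure D2:**
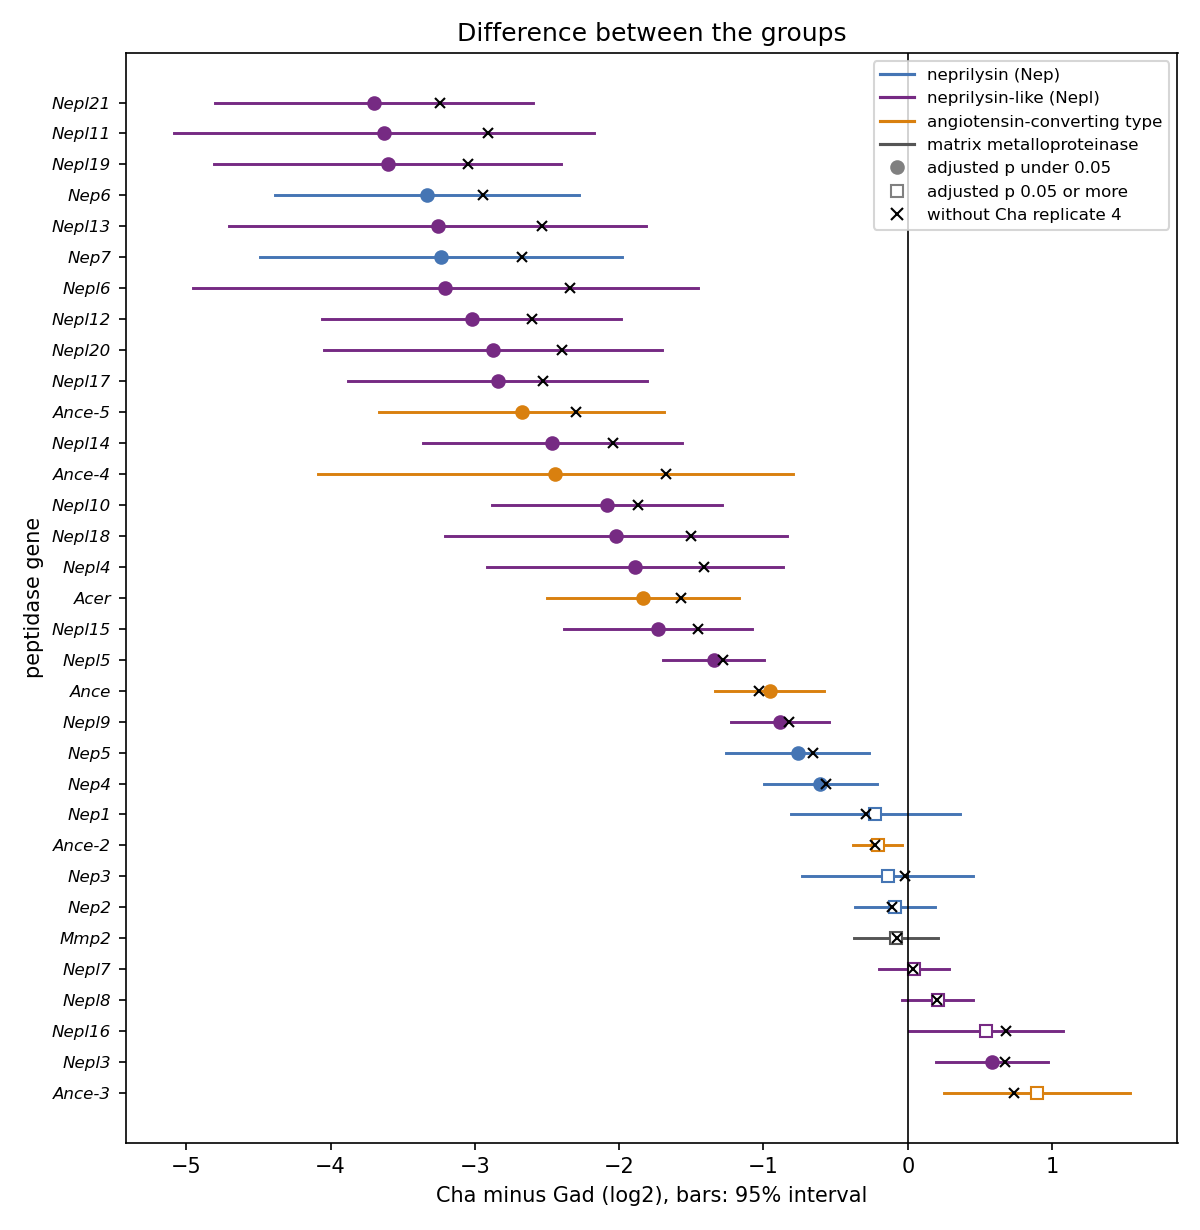
Difference of Cha minus Gad (log2) for each of the 33 peptidase genes, coloured by family, with bars for the 95% interval of the limma fit. Filled circles passed the threshold, open squares did not, and crosses give the difference without Cha replicate 4; Nepl21 lies farthest toward Gad at -3.70 and Ance-3 farthest toward Cha at 0.89.

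Angiotensin-converting type genes differed among themselves. Ance and Acer encode the active peptidases of this family in flies, and the products of Ance-2 to Ance-5 are predicted to be inactive. Acer stood at 9.49, 8.99, 9.40, 8.05 and 9.64 in Cha and at 10.98, 11.35, 11.35, 10.38 and 10.70 in Gad. Ance stood at 9.87, 9.43, 9.09, 9.80 and 9.26 in Cha and at 10.44, 10.51, 10.78, 10.13 and 10.36 in Gad. Both had separate groups and were higher in Gad, Acer by 3.57-fold (-1.84, SE 0.30, adjusted p = 0.00283) and Ance by 1.94-fold (-0.96, SE 0.17, adjusted p = 0.00425). Cha replicate 4 was the lowest array for Acer but the second highest Cha array for Ance. Without it the difference of Ance was -1.03.

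Ance-5 stood at 8.17, 7.41, 7.49, 5.75 and 7.53 in Cha and at 10.25, 9.60, 11.11, 9.33 and 9.46 in Gad. Ance-4 stood at 9.33, 8.31, 8.73, 5.01 and 9.02 in Cha and at 10.97, 9.95, 11.80, 9.80 and 10.09 in Gad. Their groups were separate, and both arrays at the extremes, Cha replicate 4 and Gad replicate 3, were the same as in Nepl21. Ance-5 was 6.39-fold higher in Gad (-2.68, SE 0.45, adjusted p = 0.00313). The difference of Ance-4 was -2.44 (SE 0.75, adjusted p = 0.0434), and without Cha replicate 4 it was smaller, with a smaller adjusted p (-1.68, adjusted p = 0.0134). The call of Ance-4 was lost on leaving out Cha replicate 2, Cha replicate 3 or any 1 Gad array (adjusted p = 0.053 to 0.109).

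Ance-3 and Ance-2 did not pass. Ance-3 stood at 8.62, 8.69, 8.55, 9.66 and 9.70 in Cha and at 7.67, 7.90, 7.87, 8.68 and 8.62 in Gad. Its higher mean was in Cha, with a difference of 0.89 (95% interval 0.25 to 1.54) and adjusted p = 0.0559, and its second probe set, dim on 3 Cha arrays, gave -0.26. It passed with median centring (0.0494), a trended prior (0.0463), dim probe sets removed (0.0433) and the closest pair of Gad arrays averaged (0.0495), and without Cha replicate 1 (0.0497) or Gad replicate 4 (0.0427). The difference was smaller and did not pass with array weights (0.58, adjusted p = 0.173) or with the mean of both probe sets (0.32, adjusted p = 0.412). Ance-2 was dim on all 10 arrays, where a difference has no clear meaning.

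The matrix metalloproteinase gene Mmp2, whose product is held at the cell membrane, stood at 6.98, 6.75, 6.43, 6.73 and 6.87 in Cha and at 6.49, 6.78, 6.93, 6.90 and 7.07 in Gad. The groups interleaved, with a difference of -0.08 (95% interval -0.37 to 0.21, adjusted p = 0.718), and a second probe set was dim on all 10 arrays. Timp, the inhibitor of these enzymes, stood at 8.66, 8.68, 8.55, 9.94 and 8.51 in Cha and at 8.96, 8.57, 9.24, 9.01 and 8.94 in Gad. Its highest value was on Cha replicate 4, and the difference was -0.08 (adjusted p = 0.871), or -0.35 without that array (adjusted p = 0.0802). The other listed inhibitor, RECK, was not analysed here.

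The genes that were higher in Gad also shared an order of the arrays. Averaged over these 23 genes, the level on Cha replicates 1 to 5 was 8.01, 7.29, 7.54, 5.71 and 7.85, and on Gad replicates 1 to 5 it was 9.76, 9.74, 10.33, 9.07 and 9.33. Cha replicate 4 was the lowest Cha array in 20 of the 23, whereas it was the lowest in 24.8% of all genes. Gad replicate 3 was the highest Gad array in 19 of the 23, against 16.9% of all genes, and Gad replicate 4 the lowest in 22, against 22.1% of all genes. The 23 genes were selected on the group difference and are not independent of each other, and no test was made over them. Cha replicate 4 lay at least 1 below each other Cha array in 16 of the 33 peptidase genes, and in 132 of all 11982 genes (1.1%). The 16 were all higher in Gad, where 10.2% of all genes were, and a low value on a Cha array itself moves a difference that way. Without this array, 21 of the 33 were still higher in Gad, beside 11.4% of all genes, and the 2 that dropped out were Nep4 and Nep5.

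**Figure D3:**
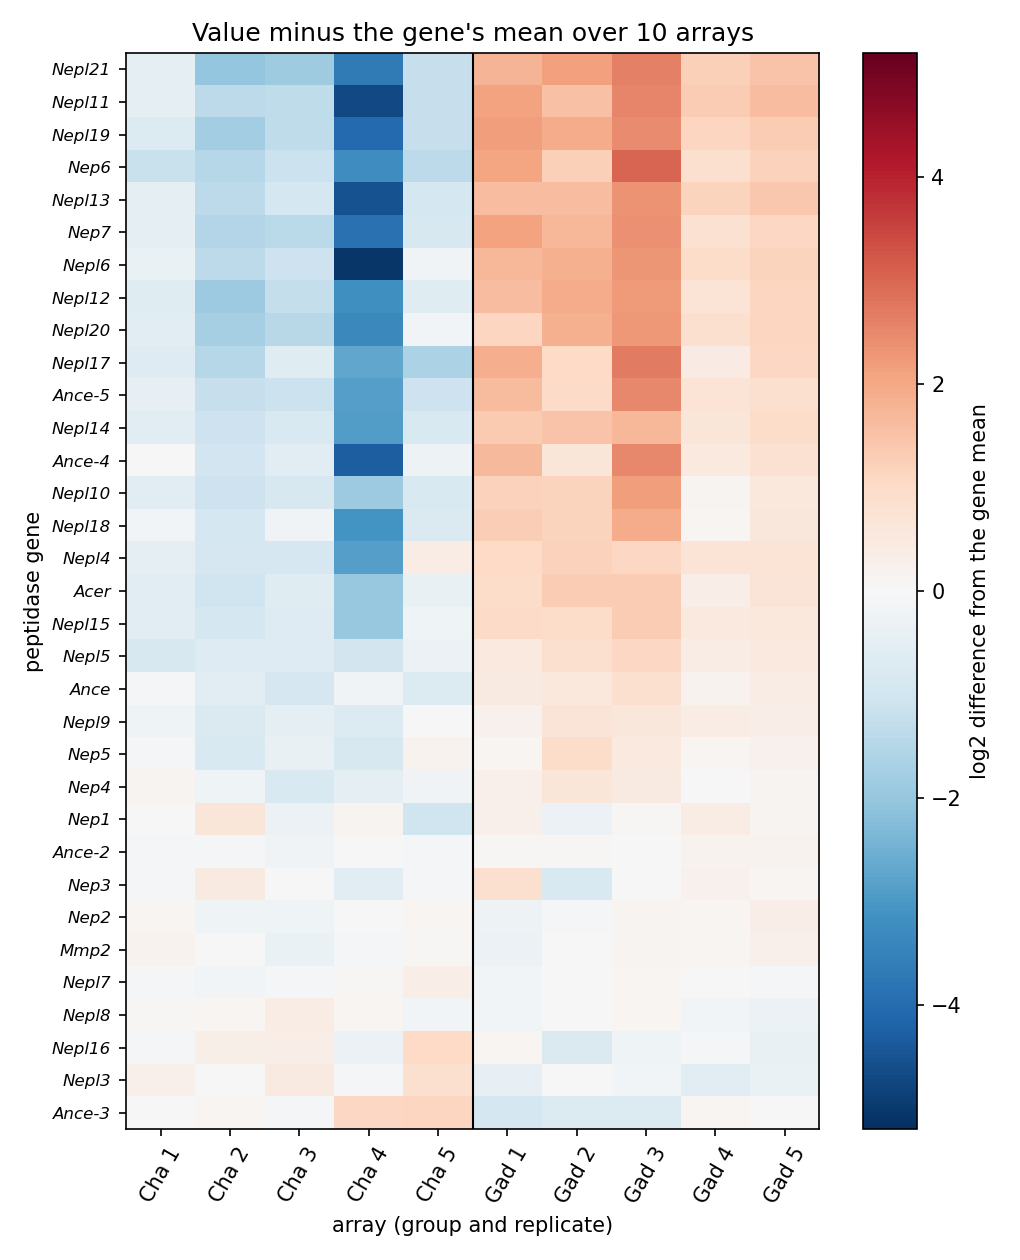
Value of each peptidase gene on each array minus that gene's mean over the 10 arrays (log2; blue is lower, red is higher), with genes ordered as in the plot of expression values and the groups divided by a line. The column of Cha replicate 4 is the darkest blue in the upper part and that of Gad replicate 3 in most of these rows the darkest red, while the lower rows, from Nep1 to Ance-3, show no such columns.

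Many of these genes lie next to each other in the genome. By the gene table of the Release 6 assembly, Nepl17, Nepl18, Nepl19, Nepl20 and Nepl21 are consecutive protein-coding genes on chromosome 3R, as are Nepl13, Nepl14 and Nepl15 at another place on 3R. All 5 of the first run and all 3 of the second were higher in Gad, with differences of -3.70 to -2.02 and of -3.26 to -1.73. Nepl5 and Nepl6 adjoin on chromosome 2L, with 2 genes between them and Nepl4, and all of these were higher in Gad as well, although by unequal amounts (-1.34, -3.21 and -1.89). Ance and Ance-2 also adjoin on 2L, with 1 gene between Ance-2 and Ance-3, and there the neighbours differed: Ance was higher in Gad, Ance-2 was dim and Ance-3 had its higher mean in Cha. Of the 12 members directly beside another member, 11 were higher in Gad (median difference -2.65), and of the 21 others, 12 were (median -0.76). Over all genes, 10.2% were. Apart from Ance and Ance-2, the members beside another were all neprilysin-like genes, and the Nep genes and Mmp2 were all among the others. Position and family were thus not told apart. Near-identical copies could share probes, which was not tested. The probe sets of Ance, Nep1 and Nep4 carry the array maker's suffix for probes that may match more than 1 transcript.

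Genes for matrix proteins, for other peptidases and for neuropeptides and their receptors were described beside them. Over all genes, 10.2% passed toward Gad and 8.21% toward Cha. Of 13 basement membrane and matrix genes, 8 passed toward Gad and 0 toward Cha (median difference -0.93). The mean level of the list was lowest on Cha replicate 4, at 9.25. This array was the lowest Cha array in 6 of the 13, against 24.8% of all genes. Among the 8 were the laminin genes LanA (-0.93), LanB1 (-1.38) and LanB2 (-1.48) and the perlecan gene trol (-1.48). Within Cha, LanB1 was lowest on replicate 4, whereas LanA, LanB2 and trol were lowest on replicate 3, and trol was highest on replicate 4. Of 12 other secreted or membrane metallopeptidase genes, AdamTS-A (-1.07), the carboxypeptidase gene svr (-0.94) and tok (-0.94) were higher in Gad and Tace, an ADAM protease gene, in Cha (0.61), with a list median of -0.18. Of 6 genes for processing or trimming peptides, 1 passed, the propeptide convertase gene Fur2 (-0.84, higher in Gad; list median -0.29).

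Beside 10.2% of all genes toward Gad and 8.21% toward Cha, 15 of 34 neuropeptide precursor genes passed toward Gad and 4 toward Cha. The median difference of these 34 was -0.65. The 4 with the smallest p were all higher in Gad: the insulin-like peptide gene Ilp2 (-2.59), Nplp1 (-1.87), the eclosion hormone gene Eh (-2.85) and the myosuppressin gene Ms (-2.46). Within Cha, their array order was not that of the peptidases, as replicate 1 or, for Eh, replicate 5 was lowest. Within Gad it was shared in part. Nplp1 was lowest on Gad replicate 4 and Eh highest on Gad replicate 3, as most of the peptidases higher in Gad were. Ilp2, Nplp1 and Ms were highest on Gad replicate 1. Ilp2 stood at 5.88, 6.72, 6.12, 6.78 and 6.68 in Cha, with Cha replicate 4 the highest of the group. Cha replicate 4 was the lowest Cha array in 4 of the 34, against 24.8% of all genes. Of 14 neuropeptide receptor genes, 5 passed toward Cha and 1 toward Gad (median difference 0.46). Those with the smallest p were sNPF-R (1.18), SPR (1.64) and NPFR (0.98) toward Cha and AkhR, the adipokinetic hormone receptor gene of fat body, toward Gad (-2.18). Cha replicate 4 was the lowest Cha array in 12 of the 14, against 24.8% of all genes. Among these 12 were sNPF-R, SPR and NPFR as well as AkhR. AkhR stood at 5.10 ± 0.59 in Cha and 7.28 ± 0.77 in Gad (SD, n = 5, limma adjusted p = 0.0036), was dim on 2 Cha arrays and was lowest on Cha replicate 4.

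Markers of other cell types moved with the peptidases in part, and their share in the result was not tested. Of 6 fat body markers, 4 passed toward Gad and 0 toward Cha, where 10.2% and 8.21% of all genes did. Cha replicate 4 was the lowest Cha array in 2 of the 6, against 24.8% of all genes. The mean level of the fat body list ran from 7.11 to 7.99 in Cha, lowest on Cha replicate 4, where Cha replicate 5 stood at 7.21. In Gad it ran from 8.88 to 10.75, highest on Gad replicate 3. Its members were Obp99a (-3.82), Pepck1 (-2.0), Lsd-1 (-1.91) and the storage protein gene Lsp2, which passed, and apolpp (-1.25, adjusted p = 0.0511) and Fbp1 (-0.05), which did not. Lsp2 was dim on all 5 Cha arrays and on Gad replicate 2, so no size is given for its difference. Its other 4 Gad arrays stood at 7.72 to 12.32. The list mean in Gad was lowest on Gad replicate 2, where Lsp2 stood at 4.67, and highest on Gad replicate 3, where Lsp2 stood at 12.32. Lsp2 thus set much of the spread of that mean in Gad.

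The counts of the next lists stand beside 10.2% of all genes passing toward Gad and 8.21% toward Cha. Of 13 genes listed as glial markers, 6 passed toward Gad and 0 toward Cha. Their mean level ran from 8.16 to 8.49 in Cha and from 8.69 to 9.08 in Gad. The genes of this list with the smallest p were CG6126 (-0.66), drpr (-0.75), zyd (-0.83) and mdy (-1.67), and wrapper was dim on all arrays. In mdy, Cha replicate 4 was the lowest array and Gad replicate 3 the highest, as in most of the peptidases higher in Gad. Whether mdy marks glia in these cultures was not tested. Of 8 muscle markers, 5 were higher in Gad, led by Mlc2 (-1.10), Prm (-1.22), Act87E (-0.95) and up (-1.11), and the mean level ran from 6.39 to 7.63 in Cha, highest on Cha replicate 4, and from 7.35 to 8.15 in Gad. Of 12 hemocyte markers, the prophenoloxidase genes PPO1 (3.39), PPO2 (1.73) and PPO3 (1.72) were higher in Cha and srp in Gad (-1.73), with mean levels of 6.85 to 7.99 and 6.37 to 7.04. Without Cha replicate 4, PPO3 did not pass (1.67, adjusted p = 0.0579), and PPO1 and PPO2 did. Of 7 epithelial and tracheal markers, Cht2 (-0.91), Ect3 (-1.45) and shg (-0.59) were higher in Gad, with mean levels of 7.14 to 7.72 and 7.76 to 8.28, and shg was dim on 4 of the 5 Cha arrays. Of 6 germ line markers, piwi passed toward Gad (-1.32) and both bam (1.38) and aub (0.63) toward Cha, with mean levels of 6.16 to 6.60 and 6.17 to 6.38, and vas and tj were dim on all arrays. Of 5 gut markers, Npc2e passed narrowly toward Cha (1.48) but did not pass without Cha replicate 4 (1.10, adjusted p = 0.0598), with mean levels of 5.75 to 6.99 and 5.85 to 6.40.

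Of 9 neuronal markers, 5 passed toward Cha and 0 toward Gad, led by Syn (1.75), futsch (1.30), fne (1.29) and nrv3 (0.83). Over all genes, 8.21% passed toward Cha and 10.2% toward Gad. The mean level of the neuronal list in Cha was lowest on replicate 4, at 9.33, and it ran from 8.31 to 9.37 in Gad. The array order of the neuronal list within Gad, highest on Gad replicate 4, was unlike that of the peptidases, which were lowest there.

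**Figure D4:**
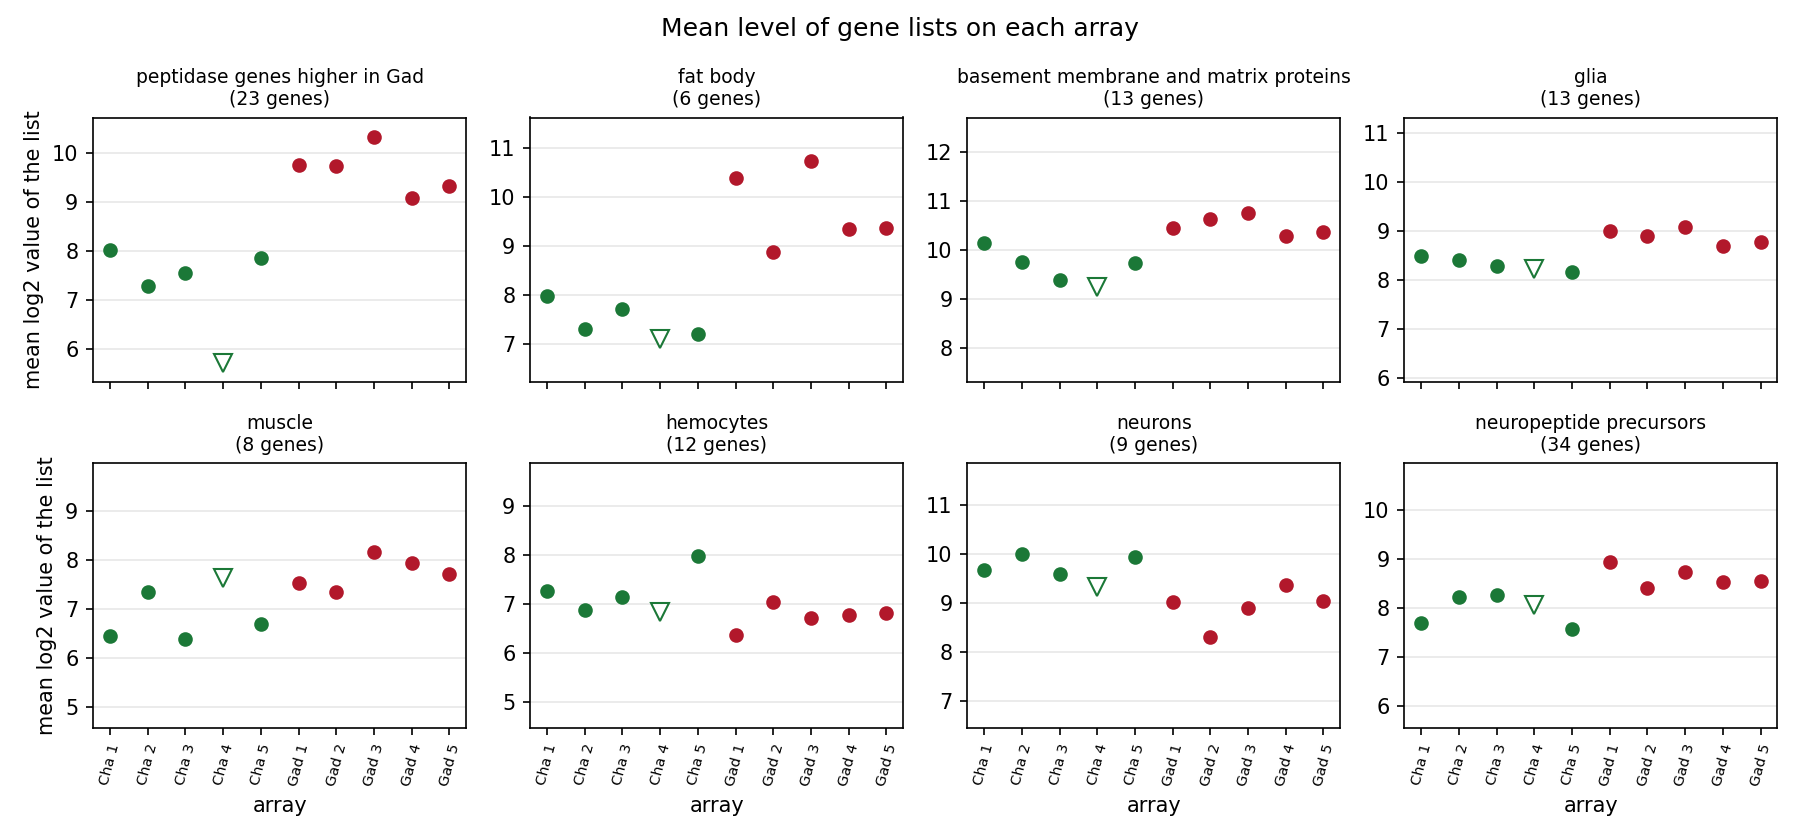
Mean log2 level of the 23 peptidase genes higher in Gad and of 7 other gene lists on each array, with green for Cha, red for Gad and an open triangle for Cha replicate 4; each panel spans the same number of log2 units. The peptidase panel holds only genes chosen as higher in Gad, which widens its gap between the groups. The other panels hold all measured genes of their lists. The peptidase panel runs from 5.71 on Cha replicate 4 to 10.33 on Gad replicate 3. The fat body panel runs from 7.11 to 10.75 on the same 2 arrays, and Lsp2 sets much of its spread in Gad.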

How the data were processed

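The authors deposited log2 expression values from an Affymetrix array, made with RMA per the submitters' processing notes. Its version is not stated there. RMA removes a shift shared by most genes and compresses differences between dim values. The precision is limited by the number of arrays. Of 18952 probe sets, 183 controls were left out. The platform annotation gave 1 gene symbol to 13647 of the rest, several to 402 and none to 4720. Groups and replicate numbers came from the sample titles. Cha and Gad were compared by 2-sided tests without covariates, using lmFit and eBayes of limma 3.58.1 (R 4.3.3), over 11982 genes, or over all 18769 probe sets for a gene's other probe sets. The Benjamini-Hochberg threshold was 0.05, and the step was tested on simulated data.

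The members and all lists were chosen with earlier results of these data known, so no list was tested. Values on every array are given for the 12 largest differences past the threshold, for up to 4 genes of each family that were brightest, and for Mmp2 and Timp. Of each list, up to 4 genes past the threshold with the smallest p are named. Ance-3, apolpp, Fbp1 and genes dim on all arrays were added after their values were seen. Alternatives covered normalization, the dim filter, the prior, array weights, the replicate block, arrays left out, the probe set rule, the threshold and a rank-sum test.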

Additional observations from a re-analysis of the deposited data

Results flagged for a closer look

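In 8 of the 68 sets of 5 arrays examined (33 peptidase genes and Timp in each group), 1 array lay so far from the others of its group that its gap exceeded 0.71 of the group's range (Dixon's 95% limit for 5 samples). Chance flags about 1 in 20 such sets, and genes of 1 array are not independent. All 8 were on Cha replicate 4. Its values were 5.91 for Nepl11, 3.59 for Nep6, 4.97 for Nepl13, 5.23 for Nepl6, 4.84 for Nepl14, 5.01 for Ance-4 and 5.86 for Nepl18, each below the other Cha arrays. For Timp it was 9.94, above the other Cha arrays at 8.51 to 8.68. The differences of these genes without this array stand in the report for all but Nepl18, which differed by -1.50 without it (adjusted p = 0.0103).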

How the results depend on the processing

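Among the 23 peptidase genes higher in Gad, 0 reversed under any alternative, and 18 kept their call in all 10 fits with 1 array left out; Nepl6, Nepl18, Ance-4, Nep5 and Nep4 did not. The count of 23 ran from 18 to 23 in those fits and was 17 at an adjusted p under 0.01. It was also 17 once both arrays with the same letter code (Cha replicate 2 and Gad replicate 5) were dropped, where those 5 genes and Nepl4 (adjusted p = 0.0697) lost their calls. With an exact rank-sum test it was 0, as for all genes in both directions, because the smallest p that 5 against 5 arrays allow (0.00794) gave an adjusted p of 0.0586; 25 peptidase genes and 2974 of all genes had an unadjusted p under 0.05. The single gene higher in Cha became 0 with the rank-sum test, loess, the stricter threshold or the letter-code arrays dropped, 2 with median centring, the trended prior or dim probe sets removed, and 0 to 1 with 1 array left out. Over all genes, the counts of 984 toward Cha and 1228 toward Gad were 382 and 673 with the letter-code arrays dropped, 304 and 566 at the stricter threshold, and 525 to 1252 and 852 to 1362 with 1 array left out. Nep4 also lost its call with array weights (0.0677) or a second quantile normalization (0.0648), and Ance-4 (0.0616) and Nepl3 (0.0861) with the closest Gad pair averaged. Apart from the stricter threshold and the fewer arrays, the cause was not tested.

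Genes that did not pass changed sign in 4 cases. Without 1 array, Nep1 ran from -0.414 to 0.0076, Nep3 from -0.355 to 0.0518 and Nepl7 from -0.038 to 0.0875, and Nep2 was 0.0278 with the letter-code arrays dropped.

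Same-numbered arrays of the groups deviated with correlations of -0.4 to 0.035 over all genes, and 0 of 5 numbers matched best with itself. These correlations gave no sign of a pairing by number, but they cannot exclude one, also not for single genes. Ance-3, for example, was highest on replicates 4 and 5 in both groups. With the replicate number as a block, 21 peptidase genes were called toward Gad and 1 toward Cha, beside 761 and 352 of all genes. The calls that changed were those of Nep4 (adjusted p = 0.0886), Nep5 (0.0996), Nepl3 (0.0823) and Ance-3 (0.00552, now called).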

Other observations

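Outside the peptidases, 116 genes also lay at least 1 lower on Cha replicate 4 than on each other Cha array. Of these, 71 passed the threshold toward Gad, and 74 did without that array, beside 10.2% and 11.4% of all genes. A low value on Cha replicate 4 lowers the Cha mean, so choosing genes by it moves their differences toward Gad in the fit to all arrays. No other array stood this far below its group in any peptidase gene, although Cha replicate 5 did so in 92 genes and Gad replicate 2 in 39. Taken in order of the gap and named after their values were seen, the first 12 were Cyt-b5-r, CG2736, Sardh, Gbp2, fon, Spn88Eb, CG10814, CG31445, Idgf5, Glt, Hexo2 and fat-spondin. Gbp2, a gene for a growth-blocking peptide, lay 3.13 below the next lowest Cha array and differed by -2.18 between the groups without Cha replicate 4. The serpin gene Spn88Eb lay 2.91 below and differed by -1.96, and the imaginal disc growth factor gene Idgf5 lay 2.55 below and differed by -2.98. The clotting gene fon lay 3.10 below but differed by only -0.63 without that array. The lipid carrier gene apolpp stood at 11.16 on Cha replicate 4 and at 12.39 or above on the other Cha arrays.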
